A study of Homo sapiens with 12 samples.

Results

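The genes described here are 50 human genes of mitosis and chromosome segregation, measured as messenger RNA on 12 Affymetrix PrimeView arrays of THP-1 cells. They were named by symbol: cyclins, kinases and phosphatases of mitotic entry, the spindle checkpoint, the trigger of anaphase, the chromosomal passenger complex, centromere and kinetochore proteins, kinesin motors, spindle assembly factors, cytokinesis factors and proteins of chromosome structure. For each gene the probe set of highest average over the 12 arrays was used, out of those that the platform's gene table pairs with exactly 1 symbol. Of the 50 genes, 49 have such a probe set, out of 18132 genes in all, and all 49 were among the 13909 genes tested. The exception is PTTG1, whose only probe set here is shared with the pseudogene PTTG3P. The 49 genes have 129 probe sets, and 33 of the genes have more than 1.

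THP-1 is a human monocytic leukaemia line, and each of the 4 groups has 3 arrays. In the temperature experiment, cells were treated with 100 ng/ml of the phorbol ester PMA for 48 hours, which turns them into macrophage-like cells, and were then held at the fever-like temperature of 40 °C or at 37 °C. In the inhibitor experiment, cells labelled siThermomir (called thermomiR inhibitor here) were set against control cells. Per the labels' protocols, cells of that experiment were differentiated with PMA at 40 °C and then received a hairpin inhibitor of a microRNA by nucleofection, together with a GFP plasmid. GFP-positive cells were sorted after 24 hours. The labels do not state which microRNA was blocked on the arrays, whether the control cells, titled wild type, received a control inhibitor and were sorted, or how long the arrayed cells had been at 40 °C. If the control cells were not nucleofected and sorted, that handling and the inhibitor cannot be told apart. A thermomiR is a microRNA that responds to temperature, and the arrays do not measure microRNAs. All 12 arrays come from 1 cell line, and no label calls the replicates separate cultures. The p-values therefore rest on the variation among these arrays, which may be technical.

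Mitosis is switched on when CDK1 pairs with cyclins A and B, and it runs through chromosome condensation, attachment of kinetochores to spindle microtubules, a checkpoint that waits for all attachments, and destruction of cyclin B and securin by the anaphase-promoting complex. Transcripts of these genes are scarce in resting cells and build up in G2 and mitosis, when MuvB complexes with B-MYB and FOXM1 act on promoters that carry CHR elements, usually together with CCAAT boxes bound by NF-Y. PMA is known to slow or stop the division of THP-1 cells as they differentiate.

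Promoters of 7 of the genes are printed because 6 of these genes were called lower with the inhibitor and AURKB was not, and because they cover the cases found: a CHR element with CCAAT boxes, a CHR element alone, CCAAT boxes alone, and neither. Each line gives the 110 bases before the first listed transcription start, 5′ to 3′ on the gene's own strand, from RefSeq (GRCh38.p14), with matches in capitals. Both strands were searched. For the CHR element the letters were TTTGAA, printed as TTCAAA where the match lies on the opposite strand. For the NF-Y box they were CCAAT, printed as ATTGG where the match lies on the opposite strand. The stretches are chr5:163460522-163460631, chr10:92593020-92593129, chr15:59105036-59105145, chr16:23678779-23678888, chr15:40160959-40161068 and chr5:138179002-138179111 on the plus strand, and chr17:8210226-8210335 on the minus strand, in the order of the lines.
HMMR: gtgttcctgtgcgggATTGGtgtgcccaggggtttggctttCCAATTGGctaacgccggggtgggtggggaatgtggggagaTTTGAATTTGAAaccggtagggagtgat
KIF11: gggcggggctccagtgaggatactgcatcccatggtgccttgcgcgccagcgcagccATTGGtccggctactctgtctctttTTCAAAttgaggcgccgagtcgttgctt
CCNB2: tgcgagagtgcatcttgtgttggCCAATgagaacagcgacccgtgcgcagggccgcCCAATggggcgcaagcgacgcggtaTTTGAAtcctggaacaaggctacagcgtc
PLK1: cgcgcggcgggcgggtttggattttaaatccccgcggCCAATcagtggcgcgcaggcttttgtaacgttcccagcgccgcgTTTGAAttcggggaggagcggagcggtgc
BUB1B: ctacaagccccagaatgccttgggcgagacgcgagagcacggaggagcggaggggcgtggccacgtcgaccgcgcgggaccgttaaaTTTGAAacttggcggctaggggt
KIF20A: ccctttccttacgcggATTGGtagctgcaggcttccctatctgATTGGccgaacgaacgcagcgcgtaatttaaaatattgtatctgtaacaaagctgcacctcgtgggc
AURKB: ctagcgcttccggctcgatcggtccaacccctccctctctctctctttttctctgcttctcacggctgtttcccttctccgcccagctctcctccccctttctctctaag
In HMMR the long run of capitals near the end is 2 adjoining CHR matches, and the second run holds a CCAAT box on each strand, which overlap. The promoter of BUB1B has a CHR match and no CCAAT box in this stretch. That of KIF20A has no CHR match in this stretch but 2 CCAAT boxes, and that of AURKB has neither motif in this stretch. A CCAAT match of AURKB lies farther from the start, at -153.

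RefSeq promoters were found for 43 of the 50 genes. AURKA, BIRC5, BUB3, FOXM1, TPX2, TTK and UBE2C had none in the table. A second CHR form, TTCGAA, which reads alike on both strands, was counted as a CHR match too. Over the whole 300 bases of each promoter (250 before the start and 50 after it), 32 of the 43 (74.4%) held a CHR match, against 13.5% of 15842 protein-coding promoters. A CCAAT match stood in 31 (72.1%), against 36.4% of all, and both motifs in 24 (55.8%), against 5.57% of all. Within the 110 bases before the start, the shares were 41.9% for CHR, 60.5% for CCAAT and 27.9% for both, against 4.09%, 22.4% and 0.997% of all promoters. In that stretch 6 promoters held CHR without CCAAT, 14 CCAAT without CHR, and 11 neither. Of 93 promoters in 4 lists of further mitotic genes, 45.2% held a CHR match in the 300 bases, 54.8% a CCAAT match and 30.1% both. Of 33 promoters of DNA replication genes, 2 held a CHR match in the 300 bases (6.06%), both of them with CCAAT, and 54.5% held a CCAAT match. Matches are descriptions of letters, and binding was not measured.

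Across the 13909 genes tested, arrays of 1 group correlated at r = 0.9935 to 0.9985. Arrays at 40 °C correlated with those at 37 °C at 0.9888 to 0.9902, and inhibitor arrays with control arrays at 0.9703 to 0.9783. The median log2 value of an array was 5.72 to 5.87. Control probe sets also differed in the inhibitor experiment. Spiked poly-A transcripts of bacterial genes averaged 5.87 ± 0.32 with the inhibitor and 7.22 ± 0.37 in control cells on the log2 scale (SD, n = 3 each), and 18S rRNA probe sets averaged 10.14 ± 0.41 with the inhibitor and 12.75 ± 0.14 in control cells. The spikes averaged 7.96 ± 0.04 at 40 °C and 7.87 ± 0.03 at 37 °C. The gap between 3′ and 5′ probe sets, a sign of RNA integrity, was 0.62 to 0.78 log2 units for GAPDH with the inhibitor, against 0.99 to 1.06 in control cells, and 2.56 to 2.88 for actin with the inhibitor, against 2.36 to 2.53 in control cells. At 40 °C the gaps were 0.36 to 0.56 for GAPDH and 1.38 to 1.82 for actin, against 0.36 to 0.40 and 1.50 to 1.57 at 37 °C. In the inhibitor experiment the groups were apart for both genes, with GAPDH lower and actin higher with the inhibitor, and in the temperature experiment they overlapped.

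With the thermomiR inhibitor nearly all mitosis genes had lower transcript levels. Of the 49 genes tested, 47 were lower with the inhibitor than in control cells and none was higher (limma, adjusted p under 0.05), a share of 95.9% lower. Over all 13909 genes, 19.6% were called lower and 25.7% higher. The median log2 difference of the 49 genes was -1.14, against 0.09 over all genes tested, and every one of the 49 differences was below 0, from -2.33 to -0.03. At least a 2-fold lower level was seen for 28 of the genes (57.1%), against 2.7% of all genes, and none was 2-fold higher, against 0.683% of all genes. Of the 28 genes, 6 were at least 4-fold lower: DLGAP5, TOP2A, KIF20A, NDC80, HMMR and NUF2. For 48 of the genes every inhibitor array lay below every control array (98.0%, against 22.9% of all genes). These are bulk samples, so fewer dividing cells and less RNA per cell cannot be told apart. With the poly-A spike level of each array added to the fit, 16 of the 49 were called lower, while the median difference was -1.18. The share of all genes called in that fit was not counted, so the 16 have no share to stand beside. The part of the spike, 18S and 3′ to 5′ differences in the result was not tested.

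**Figure D1:**
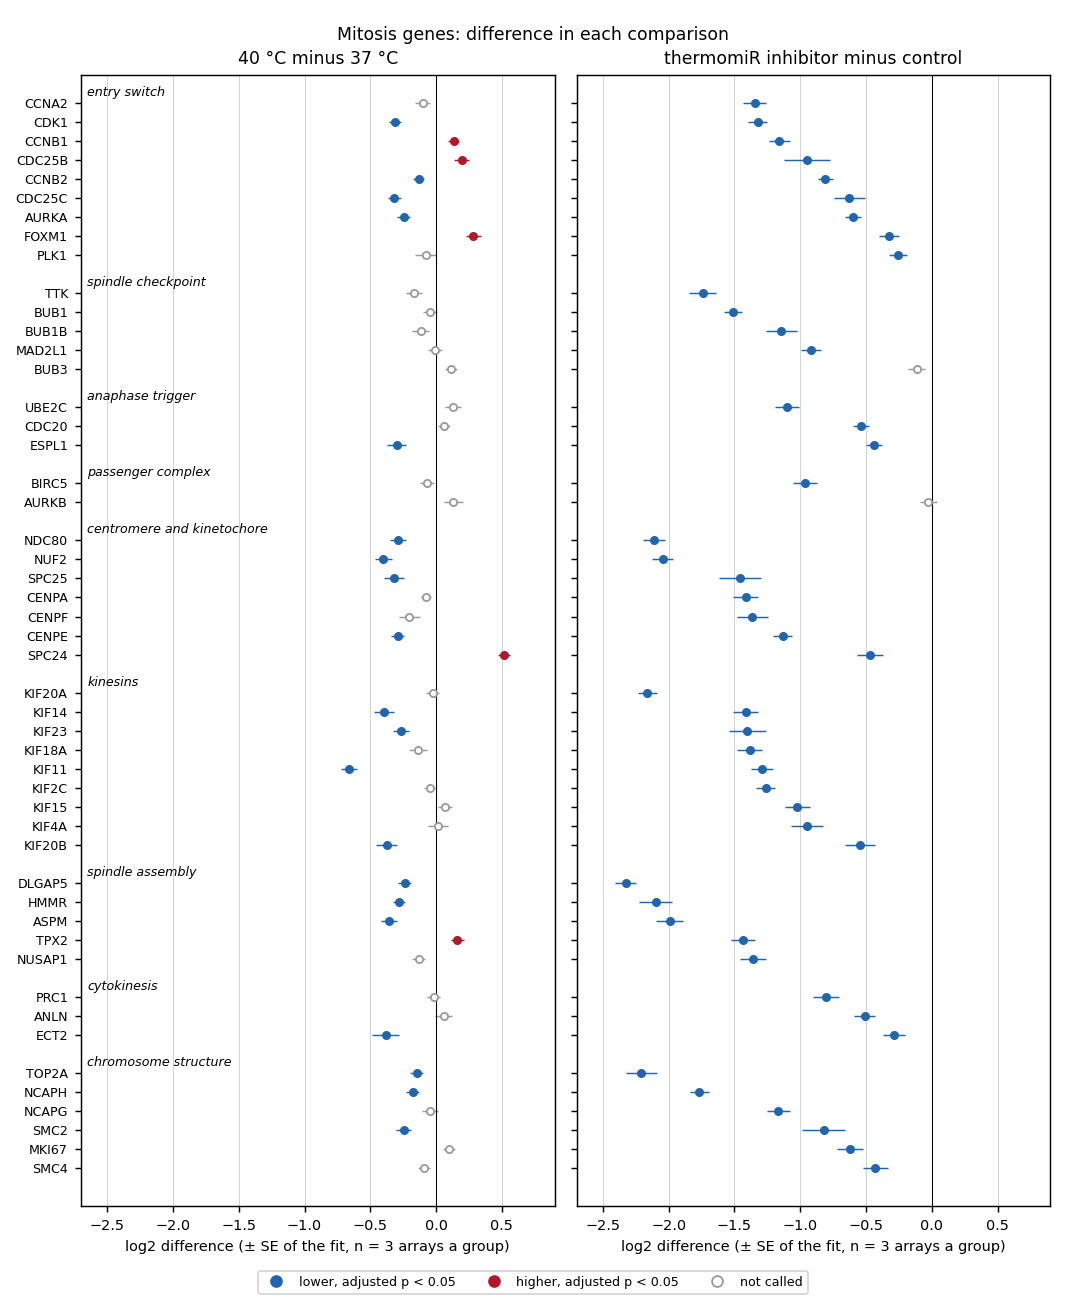
Log2 difference of each of the 49 mitosis genes, with the SE of the limma fit, for 40 °C minus 37 °C (left panel) and thermomiR inhibitor minus control (right panel), grouped by role and sorted by the inhibitor difference. In the right panel every point lies below 0 and only BUB3 and AURKB are open symbols, while in the left panel the points scatter between -0.66 and 0.52.

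Genes of the entry switch all fell. CDK1, the kinase that drives mitosis, read 7.86, 8.07 and 7.95 with the inhibitor, against 9.32, 9.29 and 9.24 in control cells. Its log2 difference was -1.32 (SE 0.07), a 2.50-fold lower level (limma, adjusted p = 2.02e-05). CCNA2, cyclin A2, read 6.78, 7.0 and 6.73 with the inhibitor, against 8.25, 8.08 and 8.22 in control cells, a 2.54-fold lower level. In both genes the lowest control array stood more than a log2 unit above the highest inhibitor array. CCNB1, cyclin B1, read 7.47, 7.61 and 7.36 with the inhibitor, against 8.72, 8.62 and 8.58 in control cells, and was 2.23-fold lower. CCNB2, its close relative, read 7.09, 7.17 and 7.06 with the inhibitor, against 7.95, 7.90 and 7.90 in control cells, and was 1.75-fold lower. AURKA, a kinase of centrosomes and spindle poles, read 8.25, 8.36 and 8.34 with the inhibitor, against 8.89, 8.93 and 8.93 in control cells, and was 1.52-fold lower. The arrays of the groups were apart for each of these. The phosphatases CDC25B and CDC25C, which remove inhibitory phosphates from CDK1, differed by -0.95 (SE 0.17) and -0.63 (SE 0.12). None of the other tested probe sets of CDC25B was called (-0.11 to 0.14), and the mean over its probe sets differed by -0.23.

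The smallest differences of the entry group belonged to FOXM1 and PLK1. FOXM1, a transcription factor that drives genes of G2 and mitosis, read 5.59, 5.64 and 5.72 with the inhibitor, against 5.98, 5.86 and 6.08 in control cells. Its difference was -0.32 (SE 0.08, limma, adjusted p = 0.0101). PLK1, a kinase of mitotic entry and centrosome maturation whose promoter is among those printed, read 6.15, 6.06 and 6.23 with the inhibitor, against 6.36, 6.46 and 6.39 in control cells. The groups were apart, but the difference was only -0.26 (SE 0.07, limma, adjusted p = 0.0165). PLK1 was no longer called without inhibitor replicate 1 and without replicate 2 or replicate 3 of the controls, with differences of -0.26 to -0.23 and adjusted p of 0.0507 to 0.0555. The mean over the probe sets of PLK1 did not pass the test either.

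In the spindle checkpoint, which holds back anaphase until chromosomes are attached, 4 of 5 genes fell. TTK, the kinase that starts checkpoint signalling, read 6.55, 6.63 and 6.28 with the inhibitor, against 8.33, 8.13 and 8.22 in control cells, and was 3.34-fold lower. BUB1, a checkpoint kinase at kinetochores, read 6.21, 6.24 and 6.05 with the inhibitor, against 7.72, 7.64 and 7.68 in control cells, and was 2.85-fold lower. BUB1B, a part of the mitotic checkpoint complex, read 6.71, 6.59 and 6.23 with the inhibitor, against 7.70, 7.61 and 7.65 in control cells, and was 2.21-fold lower. MAD2L1, the subunit that holds CDC20 in that complex, read 8.37, 8.58 and 8.35 with the inhibitor, against 9.38, 9.33 and 9.34 in control cells, and was 1.89-fold lower. In these genes the groups did not overlap and each difference was many times its SE. BUB3, which carries BUB1 and BUB1B to kinetochores, read 10.32, 10.44 and 10.39 with the inhibitor, against 10.56, 10.49 and 10.45 in control cells. Its arrays were just apart, with a difference of -0.12 (SE 0.06) that did not pass the test (limma, adjusted p = 0.166). The other probe sets of BUB3 differed by -0.36 and -0.47, and both were called lower.

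The trigger of anaphase fell in all 3 of its genes with a probe set of their own. CDC20, an activator of the anaphase-promoting complex, read 9.37, 9.51 and 9.41 with the inhibitor, against 9.97, 9.93 and 10.01 in control cells, and was 1.45-fold lower. UBE2C, the ubiquitin-conjugating enzyme of that complex, read 7.17, 7.33 and 7.35 with the inhibitor, against 8.42, 8.22 and 8.51 in control cells, and was 2.14-fold lower. ESPL1, the separase that cuts cohesin, read 6.48, 6.45 and 6.38 with the inhibitor, against 6.95, 6.81 and 6.87 in control cells, and was 1.36-fold lower. No groups overlapped in these genes. The mean over the probe sets of ESPL1 did not pass the test. The probe set shared by PTTG1, the securin that holds separase back, and PTTG3P read 8.45, 8.51 and 8.35 with the inhibitor, against 9.06, 9.01 and 8.93 in control cells. It was 1.48-fold lower (limma, adjusted p = 0.000791 over all probe sets), and which of the 2 transcripts it measured is uncertain.

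The chromosomal passenger complex corrects faulty attachments, and 1 of its 2 genes passed the test. BIRC5, survivin, read 7.07, 7.07 and 7.37 with the inhibitor, against 8.17, 8.10 and 8.13 in control cells, and was 1.95-fold lower (limma, adjusted p = 0.000189). The other tested probe sets of BIRC5 differed by -1.80 to -0.08, and only some of them were called lower. The mean over its probe sets differed by -0.50. AURKB, the kinase of the complex, read 7.02, 7.02 and 6.88 with the inhibitor, against 7.04, 6.95 and 7.01 in control cells. The AURKB arrays overlapped, the difference was -0.03 (SE 0.06), and it did not pass the test (limma, adjusted p = 0.758). AURKB was the only 1 of the 49 genes whose inhibitor and control arrays overlapped.

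Centromere and kinetochore genes fell in 7 of 7, and 6 of them by at least 2-fold. NDC80, the subunit that grips microtubules, read 5.18, 5.43 and 5.31 with the inhibitor, against 7.45, 7.31 and 7.50 in control cells. NUF2, its partner, read 5.80, 5.90 and 5.82 with the inhibitor, against 7.99, 7.75 and 7.92 in control cells. NDC80 was 4.33-fold and NUF2 4.13-fold lower, and even the nearest arrays of the groups lay far apart. SPC25, of the other end of the same complex, read 5.43, 5.83 and 5.17 with the inhibitor, against 7.05, 6.82 and 6.93 in control cells, and was 2.74-fold lower. SPC24, its partner, read 4.96, 5.22 and 5.23 with the inhibitor, against 5.47, 5.68 and 5.68 in control cells, and differed by -0.47 (SE 0.10, limma, adjusted p = 0.0061). The differences of the 4 subunits of this complex ranged from -2.11 to -0.47, and none of the 4 other probe sets of SPC24 was called. Those 4 averaged 4.22 to 4.89 with the inhibitor and 4.23 to 4.92 in control cells. These levels are near the filter value of 4.48, so the missing calls say little about SPC24. CENPA, the histone variant that marks centromeres, read 6.04, 6.33 and 6.0 with the inhibitor, against 7.56, 7.48 and 7.57 in control cells, and was 2.66-fold lower. CENPE, a kinesin of kinetochores, read 6.36, 6.36 and 6.54 with the inhibitor, against 7.53, 7.51 and 7.62 in control cells, and was 2.19-fold lower. CENPF, a large kinetochore protein, read 6.60, 6.64 and 6.22 with the inhibitor, against 7.86, 7.75 and 7.94 in control cells, and was 2.57-fold lower. For all 3 the groups were clearly apart.

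**Figure D2:**
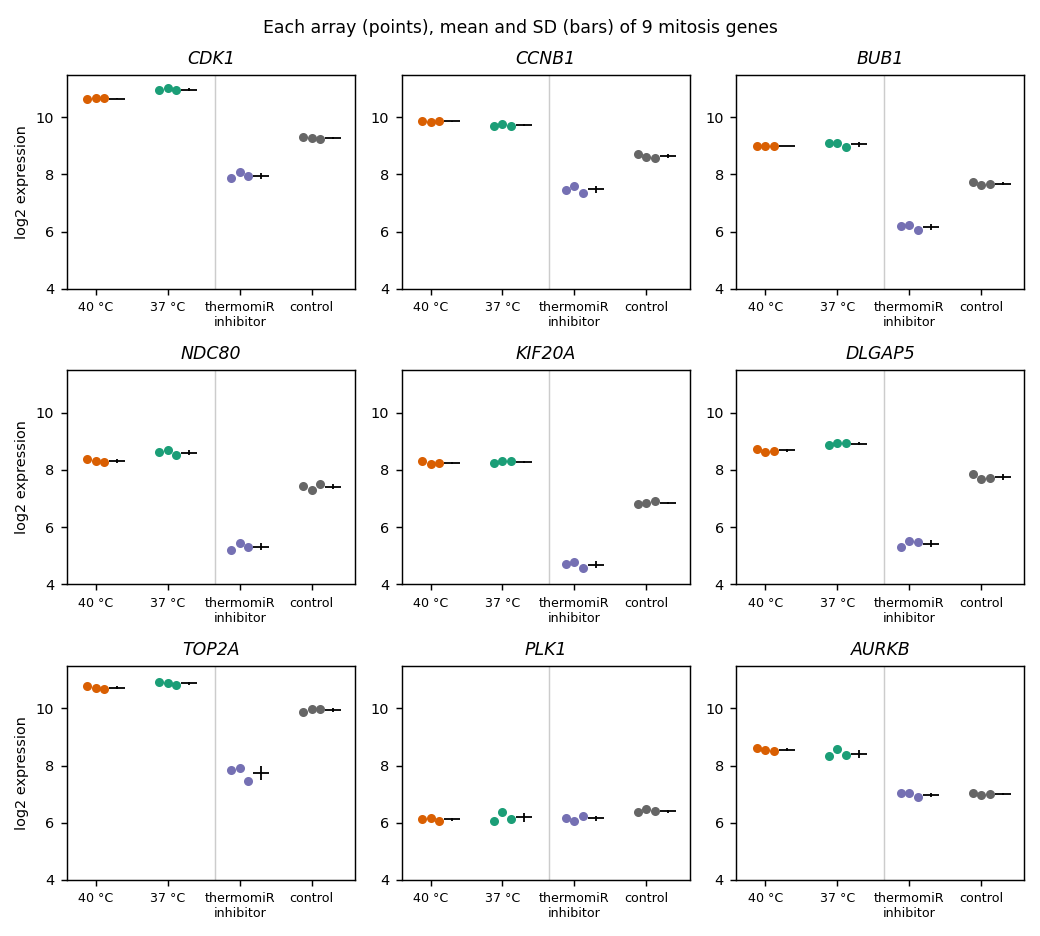
Log2 values of 9 mitosis genes on each of the 12 arrays, 1 point an array, with bars for the mean and SD of each group of 3 and a grey line between the experiments. The inhibitor arrays lie below the control arrays for every gene shown except AURKB, where the groups overlap, and for the other 8 genes the means at 40 °C and 37 °C lie closer together than those of inhibitor and control.

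All 9 mitotic kinesins fell, 7 of them by at least 2-fold, with a median log2 difference of -1.29. KIF20A, a motor of the central spindle whose promoter is printed with its 2 CCAAT boxes, read 4.69, 4.79 and 4.57 with the inhibitor, against 6.81, 6.83 and 6.90 in control cells. It was 4.48-fold lower and had the smallest adjusted p of the 49 genes (limma, adjusted p = 3.72e-06). KIF11, the motor that pushes spindle poles apart, read 6.43, 6.52 and 6.25 with the inhibitor, against 7.74, 7.64 and 7.69 in control cells, and was 2.45-fold lower. Its promoter is also printed, with a CHR match near the start. KIF14, a motor of cytokinesis, differed by -1.41 (SE 0.10), and KIF23, a motor of the centralspindlin complex, by -1.40 (SE 0.14). KIF18A, which dampens chromosome movements, differed by -1.38 (SE 0.10). KIF2C, which takes microtubules apart at kinetochores, read 7.26, 7.45 and 7.32 with the inhibitor, against 8.66, 8.53 and 8.63 in control cells, a difference of -1.26 (SE 0.07). The remaining kinesins were KIF15 at -1.02, KIF4A at -0.95 and KIF20B at -0.55, with KIF20B the smallest in size of the 9. The other probe set of KIF4A differed by 0.05 and was not called.

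Spindle assembly factors had the lowest median of the 9 roles, -1.99, and all 5 were at least 2-fold lower. DLGAP5, a protein that stabilises kinetochore fibres, read 5.29, 5.52 and 5.46 with the inhibitor, against 7.85, 7.67 and 7.73 in control cells. It had the largest difference of the 49 genes, -2.33 (SE 0.08), a 5.02-fold lower level (limma, adjusted p = 4.69e-06). HMMR, a spindle pole protein whose promoter opens the printed set, read 6.96, 7.26 and 6.75 with the inhibitor, against 9.12, 9.01 and 9.14 in control cells, and was 4.29-fold lower. ASPM, a protein of microtubule minus ends, read 6.12, 6.20 and 5.81 with the inhibitor, against 8.0, 8.07 and 8.04 in control cells, and was 3.98-fold lower. The groups lay well apart in each of these genes. TPX2, which activates AURKA on the spindle, read 6.19, 6.16 and 6.06 with the inhibitor, against 7.55, 7.42 and 7.75 in control cells, and was 2.71-fold lower. NUSAP1, a microtubule bundling protein, differed by -1.36 (SE 0.10).

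Cytokinesis genes fell in 3 of 3, each by less than 2-fold. PRC1, a bundler of the central spindle, read 7.66, 7.79 and 7.49 with the inhibitor, against 8.57, 8.48 and 8.31 in control cells, and was 1.75-fold lower. ANLN, a scaffold of the contractile ring, read 6.69, 6.94 and 6.79 with the inhibitor, against 7.34, 7.25 and 7.36 in control cells, and was 1.42-fold lower. ECT2, which switches on RhoA at the cleavage site, read 6.42, 6.61 and 6.34 with the inhibitor, against 6.81, 6.73 and 6.70 in control cells, a difference of -0.29 (SE 0.08, limma, adjusted p = 0.0234). No groups overlapped, but ECT2 was no longer called without inhibitor replicate 1 or replicate 3 and without any 1 of the 3 control arrays, with differences of -0.31 to -0.23.

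Genes of chromosome structure fell in 6 of 6. TOP2A, the topoisomerase that untangles sister chromatids, read 7.83, 7.91 and 7.47 with the inhibitor, against 9.86, 9.99 and 9.98 in control cells. The difference was -2.21 (SE 0.12), and the other probe sets of TOP2A differed by -2.16 and -1.94. NCAPH, a condensin subunit, read 6.25, 6.09 and 6.07 with the inhibitor, against 7.92, 7.83 and 7.96 in control cells, and was 3.40-fold lower, while the condensin subunit NCAPG differed by -1.17 (SE 0.09). SMC2, a core subunit of condensin, read 7.40, 7.60 and 6.94 with the inhibitor, against 8.24, 8.0 and 8.17 in control cells, a difference of -0.82 (SE 0.16). The other probe sets of SMC2 differed by less, from -0.44 to -0.0033, and only some of them were called lower. The mean over its probe sets differed by -0.28. SMC4, the partner of SMC2, read 10.75, 10.95 and 10.66 with the inhibitor, against 11.23, 11.09 and 11.33 in control cells, a difference of -0.43 (SE 0.10). MKI67, the proliferation marker Ki-67 of the chromosome surface, read 7.28, 7.34 and 7.07 with the inhibitor, against 7.96, 7.69 and 7.90 in control cells. It was 1.54-fold lower, and its arrays did not overlap between groups. Of the 5 other probe sets of MKI67, 2 were also called lower.

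Over the genes with more than 1 probe set, 69 other probe sets of 30 genes were tested. With the inhibitor 45 of them were lower and none was higher, with a median log2 difference of -0.46. These calls come from a fit of probe sets, not of genes. The share of all probe sets called in that fit was not counted, so the 45 have no share to stand beside. No gene had probe sets called in opposite directions. Over the 49 genes, which share their arrays, the rank correlation of a gene's mean level over the 12 arrays with its inhibitor difference was 0.000408 (Spearman's rho). Genes with a CHR match in the 300 promoter bases had a median difference of -1.23 (n = 32), and those without had -1.15 (n = 10). Genes with both motifs had a median of -1.34 (n = 24), and the others with a tested promoter had -1.14 (n = 18). In the 300 bases AURKB had a CCAAT match and no CHR match, PLK1 had both, and KIF20A had CCAAT matches and no CHR match. The differences of AURKB, PLK1 and KIF20A were -0.03, -0.26 and -2.16. The part of the motifs in the inhibitor differences was not tested.

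Between 40 °C and 37 °C the mitosis genes differed by small amounts and in both directions. Of the 49 genes, 20 were lower at 40 °C (40.8%) and 5 were higher (10.2%), against 17.7% lower and 21.6% higher over all genes tested (limma, adjusted p under 0.05). The remaining 24 did not pass the test. The median log2 difference was -0.12, against 0.01 over all genes. None of the 49 was 2-fold lower or higher (0.489% and 0.525% of all genes were), and 47 had a difference of less than 0.5 in size on the log2 scale. Every array at 40 °C lay below every array at 37 °C for 25 genes (22.5% of all genes were lower in this way), and above for 7 (27% of all). With the poly-A spike level of each array added to the fit, 7 were called lower and 1 higher, and the shares of all genes in that fit were not counted. The number called higher was 2 without replicate 1 or replicate 2 at 40 °C or replicate 3 at 37 °C, and 3 without replicate 1 at 37 °C. Among the other probe sets of the genes, 18 were lower, 5 higher and 46 not called. The shares over all probe sets were not counted, so these counts have none to stand beside.

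Genes that fell at 40 °C came from 7 of the 9 roles. KIF11, the motor of pole separation, read 8.62, 8.43 and 8.55 at 40 °C, against 9.18, 9.26 and 9.14 at 37 °C, the largest decrease, at -0.66 (SE 0.06) or 1.58-fold (limma, adjusted p = 0.000127). Its groups were clearly apart. NUF2 read 8.34, 8.13 and 8.17 at 40 °C, against 8.56, 8.65 and 8.63 at 37 °C, a difference of -0.40 (SE 0.06). KIF14 read 6.57, 6.39 and 6.65 at 40 °C, against 6.84, 7.0 and 6.95 at 37 °C, a difference of -0.39 (SE 0.08). ECT2 read 7.08, 6.76 and 7.08 at 40 °C, against 7.31, 7.50 and 7.26 at 37 °C, a difference of -0.38 (SE 0.10). No groups overlapped in these genes. NDC80 read 8.39, 8.30 and 8.27 at 40 °C, against 8.62, 8.70 and 8.51 at 37 °C, and differed by -0.29. CENPE read 7.67, 7.63 and 7.73 at 40 °C, against 7.93, 8.04 and 7.94 at 37 °C, and differed by -0.29. The other NDC80-complex member to fall was SPC25, at -0.32, so 3 of the 4 subunits fell.

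CDK1 read 10.63, 10.67 and 10.68 at 40 °C, against 10.95, 11.02 and 10.95 at 37 °C, and was 1.24-fold lower (limma, adjusted p = 0.000968). The other tested probe set of CDK1 differed by -0.04 and was not called. That of CDC25C, which also fell, differed by 0.01 and was not called. AURKA read 9.78, 9.71 and 9.71 at 40 °C, against 10.02, 9.99 and 9.93 at 37 °C, and differed by -0.25. HMMR read 9.85, 9.76 and 9.81 at 40 °C, against 10.06, 10.13 and 10.08 at 37 °C, and differed by -0.28. In these genes each array at 40 °C lay below each at 37 °C. SMC2 read 8.93, 9.13 and 9.05 at 40 °C, against 9.30, 9.28 and 9.27 at 37 °C, and differed by -0.25. TOP2A read 10.77, 10.73 and 10.69 at 40 °C, against 10.92, 10.89 and 10.82 at 37 °C, and differed by -0.15 (limma, adjusted p = 0.043). CCNB2 read 9.18, 9.18 and 9.15 at 40 °C, against 9.32, 9.30 and 9.29 at 37 °C, and differed by -0.13. The remaining genes that fell were ASPM (-0.36), KIF20B (-0.38), CDC25C (-0.32), ESPL1 (-0.30), KIF23 (-0.27), DLGAP5 (-0.24) and NCAPH (-0.18). Calls of 3 were lost on leaving out a single array: CCNB2 without any 1 of the 6 (-0.14 to -0.12), TOP2A without replicate 2 or 3 at 40 °C or replicate 1 or 2 at 37 °C (-0.147 to -0.125), and NCAPH without replicate 1 or 2 at 40 °C or replicate 2 or 3 at 37 °C (-0.17 to -0.16).

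The 5 genes that rose at 40 °C were SPC24, FOXM1, CDC25B, TPX2 and CCNB1. SPC24 read 8.54, 8.60 and 8.49 at 40 °C, against 8.0, 8.05 and 8.03 at 37 °C, the largest increase, at 0.52 (SE 0.05) or 1.43-fold (limma, adjusted p = 0.000115). Of its 4 other probe sets, 3 were also called higher. FOXM1 read 7.60, 7.45 and 7.42 at 40 °C, against 7.18, 7.23 and 7.21 at 37 °C, a difference of 0.28 (SE 0.06). The other probe sets of FOXM1 differed by 0.06 and 0.01, and neither was called. CDC25B read 7.14, 7.14 and 7.05 at 40 °C, against 7.0, 6.93 and 6.82 at 37 °C, a difference of 0.19 (SE 0.06). TPX2 read 8.93, 8.96 and 8.84 at 40 °C, against 8.74, 8.79 and 8.72 at 37 °C, a difference of 0.16 (SE 0.05). Groups did not overlap in any of these. CCNB1 read 9.87, 9.84 and 9.86 at 40 °C, against 9.69, 9.77 and 9.71 at 37 °C, a difference of 0.13 that just passed the test (limma, adjusted p = 0.0437). Leaving out single arrays ended the call of CCNB1 (any but replicate 2 at 37 °C, 0.12 to 0.14), of CDC25B (replicate 1 or 2 at 40 °C, replicate 2 or 3 at 37 °C, 0.145 to 0.20) and of TPX2 (replicate 1 or 2 at 40 °C, replicate 1 or 3 at 37 °C, 0.135 to 0.155). Centring each array on its median left 3 of the 5 called higher, without CCNB1 and TPX2. The mean over the probe sets of CDC25B did not pass the test.

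None of the 5 checkpoint genes passed the test at 40 °C. BUB1 read 9.01, 9.01 and 9.0 at 40 °C, against 9.11, 9.10 and 8.95 at 37 °C, and differed by -0.05 (SE 0.05). BUB1B read 8.53, 8.37 and 8.31 at 40 °C, against 8.49, 8.57 and 8.50 at 37 °C, and differed by -0.12 (SE 0.06). MAD2L1 read 10.30, 10.27 and 10.39 at 40 °C, against 10.38, 10.26 and 10.35 at 37 °C, and differed by -0.01 (SE 0.05). The groups overlapped in all 3. BUB3 read 10.66, 10.64 and 10.69 at 40 °C, against 10.52, 10.57 and 10.56 at 37 °C, and differed by 0.11 (limma, adjusted p = 0.0702), while another of its probe sets was called lower, by -0.43. TTK differed by -0.17 (limma, adjusted p = 0.0586).

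Of the 24 genes not called for temperature, several others had slightly lower means at 40 °C. KIF20A read 8.30, 8.21 and 8.24 at 40 °C, against 8.23, 8.30 and 8.30 at 37 °C, and differed by -0.03 (SE 0.05). CENPA read 9.20, 9.17 and 9.21 at 40 °C, against 9.28, 9.27 and 9.26 at 37 °C, and differed by -0.08 (SE 0.04). CCNA2 read 9.51, 9.38 and 9.50 at 40 °C, against 9.50, 9.55 and 9.65 at 37 °C, and differed by -0.10 (SE 0.06). CENPA arrays were just apart while those of KIF20A and CCNA2 overlapped. CENPF read 7.86, 8.17 and 8.07 at 40 °C, against 8.23, 8.26 and 8.22 at 37 °C, and differed by -0.20 (limma, adjusted p = 0.0708). PRC1 read 10.06, 9.95 and 10.0 at 40 °C, against 10.04, 10.04 and 9.99 at 37 °C, and differed by -0.02 (SE 0.05). PLK1 read 6.13, 6.15 and 6.05 at 40 °C, against 6.07, 6.37 and 6.13 at 37 °C, and differed by -0.08 (SE 0.08). The differences were -0.13 for NUSAP1 (limma, adjusted p = 0.0546), -0.14 for KIF18A, -0.05 for KIF2C and -0.05 for NCAPG.

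Other genes that did not pass had means near those at 37 °C or slightly above them. CDC20 read 10.83, 10.76 and 10.73 at 40 °C, against 10.68, 10.72 and 10.74 at 37 °C, and differed by 0.06 (SE 0.05). UBE2C read 9.61, 9.70 and 9.65 at 40 °C, against 9.50, 9.63 and 9.44 at 37 °C, and differed by 0.13 (SE 0.06). AURKB read 8.60, 8.54 and 8.51 at 40 °C, against 8.32, 8.58 and 8.36 at 37 °C, and differed by 0.13 (SE 0.07). In AURKB the arrays at 37 °C were spread more widely than the difference. MKI67 read 9.70, 9.59 and 9.62 at 40 °C, against 9.55, 9.56 and 9.51 at 37 °C, and differed by 0.10 (limma, adjusted p = 0.153). ANLN read 8.97, 8.80 and 8.76 at 40 °C, against 8.74, 8.82 and 8.80 at 37 °C, and differed by 0.06 (SE 0.06). SMC4 read 11.09, 11.02 and 11.11 at 40 °C, against 11.18, 11.18 and 11.14 at 37 °C, and differed by -0.09 (SE 0.05). KIF15 and KIF4A differed by 0.07 and 0.02. BIRC5, at -0.07 (SE 0.05), has 12 probe sets, and 2 of the others were called higher, by 0.62 and 0.66. The probe set shared by PTTG1 and PTTG3P read 9.91, 9.90 and 9.90 at 40 °C, against 9.83, 9.89 and 9.89 at 37 °C.

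The inhibitor and temperature differences come from separate arrays, so the difference between them was tested in a fit of all 12 arrays. The inhibitor difference was lower than the temperature difference for 43 of the 49 genes and higher for none (limma, adjusted p under 0.05), against 21.1% lower and 23.1% higher over all genes, and the median gap was -1.03. KIF20A had the largest gap, -2.14 (SE 0.08, limma, adjusted p = 8.12e-09). DLGAP5 followed with -2.09 (SE 0.10). CCNB1, which was called higher at 40 °C and lower with the inhibitor, had a gap of -1.29 (SE 0.09). The 6 genes without a called gap were CDC25C (-0.31), PLK1 (-0.18), ESPL1 (-0.14), AURKB (-0.16), KIF20B (-0.17) and ECT2 (0.09), of which only ECT2 had a gap above 0. The SMC4 and SMC2 gaps, -0.34 and -0.58, lost their calls without single arrays: SMC4 without any 1 of replicates 1 and 3 at 40 °C, replicate 3 at 37 °C, replicates 1 and 3 of the inhibitor and replicate 3 of the controls (-0.33 to -0.27), and SMC2 without replicate 2 or 3 at 40 °C or replicate 1 or 3 of the controls (-0.57 to -0.525). With the mean over its probe sets the SMC2 gap was only -0.035 and was not called.

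Set side by side, 20 genes were lower in both comparisons, 5 were higher at 40 °C and lower with the inhibitor, 22 were lower with the inhibitor and not called for temperature, and 2 (BUB3 and AURKB) were called in neither. The inhibitor difference was the larger in size for 46 of the 49. These pairs of calls and sizes were not counted over all genes, so the counts describe the 49 genes only. Across the 49 genes the differences had a Spearman's rho of 0.35 and a Pearson's r of 0.37, which is a description over genes that share arrays within each experiment.

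**Figure D3:**
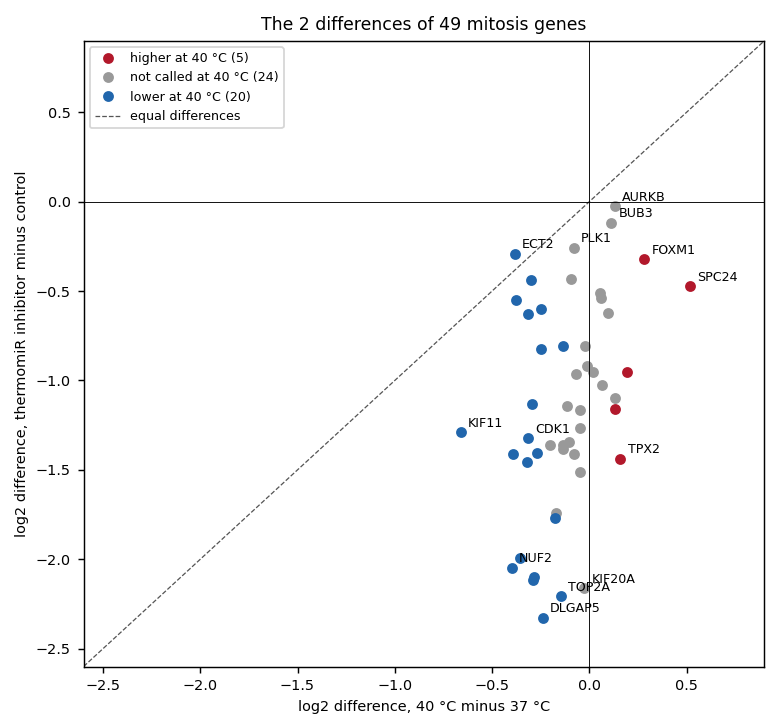
Log2 difference of each of the 49 mitosis genes with the thermomiR inhibitor (vertical axis) against that between 40 °C and 37 °C (horizontal axis), 1 point a gene. All points lie below 0 on the vertical axis, down to -2.33 for DLGAP5, while they spread to both sides of 0 on the horizontal axis.

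Levels in the 4 groups are given as a description, since the protocols give nucleofection and sorting for the inhibitor experiment only. Whether its control cells were handled so is not stated. The mean log2 value of the 49 genes was 6.58 to 6.76 on inhibitor arrays, 7.72 to 7.84 on control arrays, 8.68 to 8.74 at 40 °C and 8.80 to 8.86 at 37 °C. The inhibitor group had the lowest mean for 48 of the 49 genes, and for 47 of them its arrays were apart from the next group, the exception being AURKB. PLK1 was lowest at 40 °C, and its 4 groups overlapped with their neighbours in the order. The highest mean was at 37 °C for 34 genes (apart from the next in 23), at 40 °C for 13 (apart in 7) and in control cells for 2. For 44 genes every control array of the inhibitor experiment lay below every array at 40 °C, with a median difference of -0.90 between those groups. These orders of the groups were not counted over all genes. Whether the whole order is particular to the mitosis genes was therefore not tested. Lower levels in control cells than at 40 °C were seen in other lists too. DNA replication genes averaged 7.67 to 7.75 in control cells and 9.15 to 9.20 at 40 °C. Other kinetochore genes averaged 7.18 to 7.24 and 8.01 to 8.05. Macrophage and monocyte markers went the other way, at 9.26 to 9.32 and 9.17 to 9.25. The median SD of the 49 genes among the 3 arrays of a group was 0.13 with the inhibitor, 0.09 in control cells, 0.06 at 40 °C and 0.05 at 37 °C.

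Other genes of cell division were counted in the same fits, from lists of the rest of the pathway. Over all 13909 genes tested, 19.6% were called lower and 25.7% higher with the inhibitor, and 17.7% lower and 21.6% higher at 40 °C, the shares to set beside each list's counts. Among 4 further mitotic lists with 106 genes tested, 45 were lower with the inhibitor (42.5%) and 15 higher, and 30 were lower at 40 °C (28.3%) and 21 higher. Mitotic regulators and spindle genes outside the 50 had 22 of 39 lower and 4 higher with the inhibitor, with a median of -0.42. The centrosome kinase NEK2 was 4.87-fold lower, CEP55 of the abscission site 2.78-fold, the nuclear lamina gene LMNB1 3.53-fold and DEPDC1B 3.11-fold. At 40 °C 14 of the 39 were lower and 10 higher, among them TROAP (-0.71), CKAP2 (-0.62), CKS2 (0.55) and CDC25A (0.53).

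Of 36 other kinetochore genes, 16 were lower and 3 higher with the inhibitor (median -0.15), and 8 were lower and 4 higher at 40 °C (median 0.02). SPDL1, which brings dynein to kinetochores, differed by -1.01 with the inhibitor, HJURP, the chaperone of CENPA, by -0.97, the kinetochore scaffold KNL1 by -0.80 and the checkpoint gene MAD1L1 by 0.42. At 40 °C, CENPC, which links centromeric chromatin to the kinetochore, differed by -0.70, PMF1 by -0.51, SPDL1 by -0.47 and KNL1 by -0.29. Cohesin and condensin genes outside the 50 went both ways: 3 of 14 were lower and 5 higher with the inhibitor, and 4 lower and 3 higher at 40 °C. With the inhibitor NCAPH2 differed by 0.59, SMC1A by 0.38, STAG1 by 0.37 and CDCA5 by -0.41. The condensin subunit NCAPH2 thus rose while NCAPH, its counterpart in the other condensin complex, fell. At 40 °C CDCA5 differed by 0.51, NCAPD2 by 0.45, STAG2 by -0.49 and STAG1 by -0.31. Of 17 genes of the anaphase-promoting complex, 4 were lower and 3 higher with the inhibitor, and 4 were lower and 4 higher at 40 °C. CDC27 differed by -0.82, ANAPC10 by -0.62, FZR1 by -0.31 and ANAPC5 by 0.34 with the inhibitor. At 40 °C the values were -0.35 for CDC27, -0.46 for ANAPC10, -0.34 for ANAPC5 and 0.31 for ANAPC7.

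DNA replication genes were more often called higher than lower in both comparisons, as were all genes tested. Of 39 replication genes, 15 were higher and 6 lower with the inhibitor (median 0.15, against 0.09 over all genes), and 24 were higher and 1 lower at 40 °C (median 0.23, against 0.01 over all genes). The helicase subunits MCM7, MCM4 and MCM2 differed by 0.80, 0.76 and 0.71 with the inhibitor, and ORC1 of the origin complex by 0.46. At 40 °C, GINS2 differed by 0.66, MCM3 by 0.60, the licensing factor CDT1 by 0.54 and MCM2 by 0.50. Of 16 G1 cyclins, CDK inhibitors and their kin, 5 were higher and 5 lower with the inhibitor, and 5 higher and 3 lower at 40 °C. The G1 kinase CDK6 differed by 0.78, cyclin D1 (CCND1) by 0.65, the CDK inhibitor CDKN1C by -0.67 and RB1 by -0.54 with the inhibitor. At 40 °C CCNE1, cyclin E1, differed by 0.70, CDK4 by 0.41, CCND1 by 0.36 and CDK6 by -0.32.

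**Figure D4:**
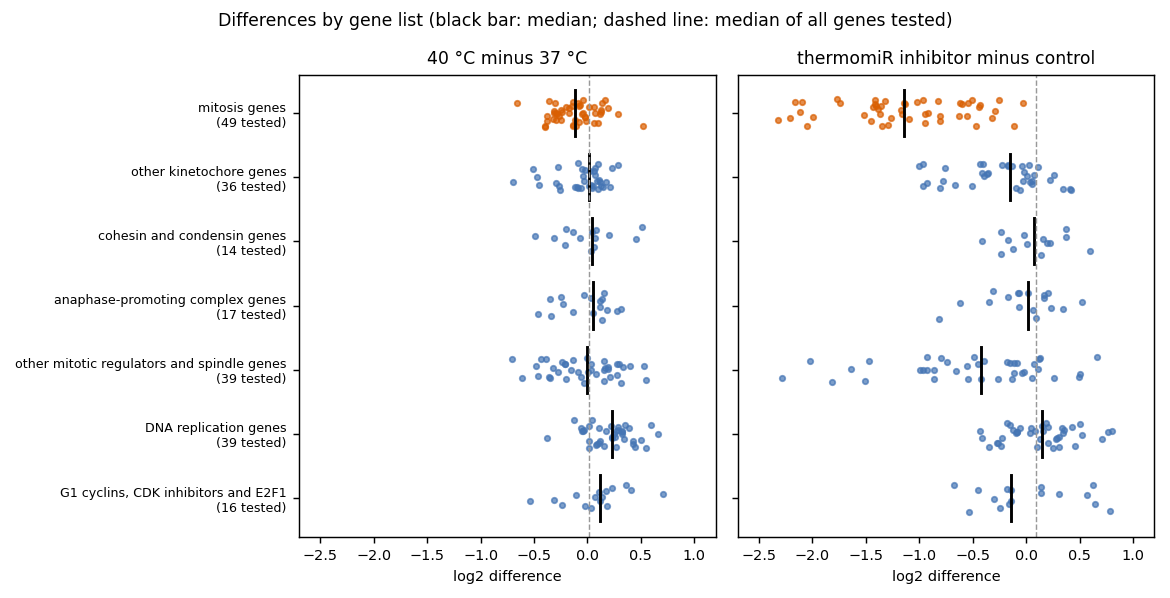
Log2 differences of the genes in each cell division list, 1 point a gene with the median as a black bar and the median of all genes as a dashed line, for 40 °C minus 37 °C (left) and thermomiR inhibitor minus control (right). The mitosis genes have the lowest median with the inhibitor (-1.14), while the DNA replication genes have medians above 0 in both comparisons (0.23 and 0.15).

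Markers of cell identity moved in the same arrays, and their counts stand beside the same shares over all genes. In each of the 4 groups, 14 of 15 macrophage and monocyte markers with a probe set had a mean above the filter. Of the 14 tested, 10 were lower and 1 higher with the inhibitor, among them LYZ (-2.34), FCGR1A (-1.46), CD14 (-0.79) and ITGAM (-0.76), and 10 were higher and 3 lower at 40 °C. The summed linear level of that list was 24255 to 24521 with the inhibitor, against 32796 to 33592 in control cells, and 25802 to 26736 at 40 °C, against 20332 to 20358 at 37 °C. Of 9 promyelocyte and progenitor markers tested, 5 were lower and 1 higher with the inhibitor, among them PRTN3 (-3.46), ELANE (-1.75), AZU1 (-1.55) and RNASE2 (-1.35), and 6 were lower and 1 higher at 40 °C. Their summed linear level was 1651 to 1889 with the inhibitor, against 3128 to 3357 in control cells, and 2455 to 2509 at 40 °C, against 3279 to 3544 at 37 °C. MPO, MS4A3 and KIT of that list and MRC1 of the macrophage list were below the filter. None of 3 erythroid markers tested was called in either comparison, and of 5 lymphocyte markers and 5 fibroblast and epithelial markers, 1 each was called higher in each comparison. The part of these markers in the mitosis gene differences was not tested.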

How the data were processed

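Total RNA of THP-1 cells, extracted with Trizol, was run on 12 PrimeView arrays, per the labels' protocols. The deposited values are log2 expression levels for 49395 probe sets, a unit read from the values. How the authors corrected, normalized and summarised them is not given in the sources used here. Arrays were grouped by title and treatment label.

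The platform's gene table gave the probe sets their symbols. Genes whose mean over 12 arrays reached the 30th percentile of the probe sets without controls (log2 4.48) were tested, 13909 of 18132. Each experiment was fitted alone by lmFit and eBayes of limma (version 3.58.1, under R 4.3.3), two-sided, with Benjamini-Hochberg adjustment over all genes tested and a threshold of 0.05. A fit of all 12 arrays tested the difference between the inhibitor and temperature differences. Residual degrees of freedom were 4 in each experiment and 8 over all arrays. A fold is 2 to the power of a log2 difference. Errors are SEs of the fit or SDs over 3 arrays. An exact permutation test of 3 arrays against 3 cannot go below p = 0.1, so none was run, and precision is limited by the number of arrays.

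The genes and the lists were chosen with earlier results of these data known. A set of 30 genes, the 3 largest called differences in each direction and genes with opposing probe sets were to be given array by array, with up to 4 genes of each other list by p and up to 4 markers of each list by size. Genes that share probe sets with other genes were left out. Alternatives changed the scaling (quantile normalization or median centring), the filter (none or the 50th percentile), the probe set rule (the mean per gene, or all probe sets tested singly) and the model (all 12 arrays together, a replicate block, array weights, trend and robust eBayes, the poly-A spike level as a covariate), or left out each array in turn. The fits were tested on simulated data. Promoters came from RefSeq (GRCh38.p14) by symbol. Counts, motifs and figures were made in Python 3.11.15 with matplotlib 3.10.9 on pandas 2.3.3 and NumPy 2.4.6.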

Additional observations from a re-analysis of the deposited data

How the results depend on the processing

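The 20 lower calls at 40 °C became 16 to 24 under the other settings apart from the poly-A spike covariate, and 17 to 20 without single arrays, and the median of -0.12 stayed between -0.13 and -0.09 without single arrays. The 5 higher calls became 2 in 1 fit of all 12 arrays, 3 without a filter, 3 with median centring, and 2 to 6 without single arrays. With the inhibitor, the 47 lower calls became 45 to 48 under settings other than the spike covariate, and 45 to 47 without single arrays, with a median of -1.18 to -1.12. With the spike covariate the calls were 1 higher and 7 lower for temperature and 0 higher and 16 lower for the inhibitor. Calls over all genes were not counted with that covariate. In the other cell division lists that covariate left 15 higher and 16 lower for temperature, against 50 and 34, and 0 higher and 7 lower for the inhibitor, against 35 and 56. Without single arrays the other lists had 40 to 48 higher and 32 to 36 lower for temperature, and 28 to 33 higher and 45 to 64 lower for the inhibitor. The covariate moves with the inhibitor groups, and the cause of the lost calls was not tested. The mean of each gene's probe sets brought the inhibitor median to -0.95 and the median gap between the differences to -0.83, against -1.14 and -1.03. Under it the PLK1, ESPL1 and SPC24 calls with the inhibitor were lost and BUB3 was called lower. No label ties replicate numbers across groups, and deviations of same-numbered arrays correlated at -0.13, -0.10 and 0.23 for temperature and -0.19, -0.60 and -0.15 for the inhibitor. The deviations were taken from means of only 3 arrays, so these values cannot decide whether the numbers pair the arrays. The main fits used no pairing. With the replicate block, 4 genes were higher and 18 lower at 40 °C, 45 were lower with the inhibitor (without PLK1 and ECT2), and 40 gaps were lower.

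Signs changed only for genes that did not pass the test in either form. For temperature they changed with the mean of probe sets for BUB3 (-0.067), MAD2L1 (0.0425), BIRC5 (0.096), KIF4A (-0.005) and MKI67 (-0.068), with quantile normalization for MAD2L1 (0.000833) and KIF4A (-0.000556), and with the spike covariate for MAD2L1 (0.14), CDC20 (-0.0066), AURKB (-0.093), KIF4A (-0.25) and ANLN (-0.099). Without single arrays the difference ran across 0 for KIF4A (-0.038 to 0.085), ANLN (-0.0067 to 0.0983), MAD2L1 (-0.045 to 0.015), PRC1 (-0.048 to 0.0067) and PLK1 (-0.14 to 0.01). For the inhibitor the AURKB sign changed with quantile normalization (0.014), with the spike covariate (0.026) and without inhibitor replicate 3, in a range of -0.052 to 0.02 over single arrays left out. The ECT2 gap ranged over -0.013 (without replicate 2 at 40 °C) to 0.15. Probe sets with signal near the filter limit what can be called.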
